A study of Mus musculus with 21 samples.

Results

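The genes described here are 9 core and output genes of the circadian clock, Per1, Per2, Per3, Ciart, Dbp, Tef, Nr1d1, Nr1d2 and Arntl, picked by gene symbol. All 9 were found, at the same coordinates, in both deposited count tables, which hold 33829 and 55385 genes.

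The circadian clock is a transcription loop with a period of about a day that runs in nearly every cell. The proteins CLOCK and BMAL1 (the product of Arntl) bind E-boxes and switch on their own repressors, the period genes Per1, Per2 and Per3, the cryptochromes and Ciart. They also switch on the nuclear receptors Nr1d1 and Nr1d2, which hold Arntl down through ROR elements, and the output factors Dbp and Tef, which act through D-boxes. In rodent tissues the mRNAs of the repressors and outputs swing over the day, with Dbp and Nr1d1 among the widest swings, and Arntl swings in the opposite phase. Their levels in a tissue therefore depend on the hour at which it was taken, and that hour, its order over mice and the light schedule are not given in the sources used here.

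RNA-seq of midbrain was made from 21 male C57BL/6 mice in 7 groups of 3, and the study's methods describe perfused animals and hand-dissected nigral tissue. The label gives an age of 6 weeks. All groups were injected into the peritoneum daily for 10 days. MPTP, a toxin that damages dopaminergic neurons, was given at 30 mg/kg a day for 5 days, and irisin, a peptide released by exercising muscle, at 200 ug/kg a day for 5 days. The remaining days were filled with injections of water.

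In the pre-treatment experiment (9 mice), controls received water on all days, the MPTP group received water and then MPTP, and the irisin then MPTP group received irisin and then MPTP. In the delayed treatment experiment (12 mice), controls again received water on all days. There the MPTP group received MPTP and then water, the irisin alone group water and then irisin, and the MPTP then irisin group MPTP and then irisin. MPTP injections thus came last in the first experiment and first in the second. This is a toxin model in wild-type animals, and no clock gene was altered. Total counts ran from 66653781 to 75637604 a mouse in the pre-treatment experiment and from 48843585 to 77203445 a mouse in the delayed treatment experiment. Transcripts of the mitochondrial genome held 10.6 to 12.9% of the counts in the first table and 0% in the second, so levels were compared within an experiment, and side by side only as a description between them. The values are CPM, counts divided by library size so that mice of unequal depth can be compared, scaled by TMM factors that lay between 0.972 and 1.02.

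Markers of the region and of its neighbours were read first. Of 8 dopaminergic neuron genes, 7 reached 1 CPM in every group, with a summed level of 462.5 to 860.8 CPM over all mice. Of 7 genes of the suprachiasmatic nucleus, the hypothalamic pacemaker, 3 or 4 reached 1 CPM in each group, with a sum of 15.2 to 25.0 CPM. The pre-treatment table held 6 of them. None of 4 pineal gland genes (3 in the pre-treatment table) reached 1 CPM in any group, and their sum stayed at 0.2 to 1.9 CPM. Choroid plexus genes summed to 1629 CPM in 1 pre-treatment MPTP mouse (replicate 2) and to 10.1 to 25.8 CPM in the other 8 mice of that experiment. Of the 5 genes, 4 had an unadjusted p under 0.05 for MPTP against control (all higher, median log2 fold change 2.35) and 3 for irisin then MPTP against MPTP (all lower, median -2.35), with 0 past the adjusted threshold. Clock genes past the adjusted threshold numbered 0 in either comparison with that mouse kept or left out. This count therefore cannot show the part of that mouse in their values. In the delayed treatment experiment the sum ran from 39.3 to 1647.5 CPM. The clock genes below were therefore read from bulk tissue of the ventral midbrain, in which fewer cells of a type and less RNA per cell cannot be told apart.

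Short stretches of the promoters are shown because the members are tied to each other by the motifs they carry. RefSeq promoter windows (GRCm38) reach from 250 bases before to 50 bases after a start site, and 8 members had 11 such windows. Per2 had none. Both strands were searched for the E-box CACGTG, its variant AACGTG, the D-box TTATGTAA and its forms TTACATAA and TTACGTAA, the ROR element TAGGTCA and the cAMP element TGACGTCA. The stretches read 5′ to 3′ on the strand of the gene, and capitals mark the motif.
Per1: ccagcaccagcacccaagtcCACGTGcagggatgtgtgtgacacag
Per3: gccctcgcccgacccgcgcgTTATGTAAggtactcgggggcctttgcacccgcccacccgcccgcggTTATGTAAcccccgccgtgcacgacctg
Ciart: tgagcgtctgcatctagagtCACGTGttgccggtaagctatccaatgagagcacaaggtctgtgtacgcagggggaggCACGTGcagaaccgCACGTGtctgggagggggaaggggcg
Tef, first window: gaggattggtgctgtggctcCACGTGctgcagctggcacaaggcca
Tef, second window: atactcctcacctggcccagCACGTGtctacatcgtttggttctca
Nr1d1: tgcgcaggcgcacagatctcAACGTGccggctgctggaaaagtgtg
Arntl, second window: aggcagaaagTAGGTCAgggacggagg

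The Per1 stretch lies at chr11:69098763-69098808 on the plus strand, with its E-box starting 166 bases before the start site. Per3 (chr4:151044796-151044890, minus strand) carried 2 D-boxes, starting 205 and 158 bases before the start site. Ciart (chr3:95882247-95882364, minus strand) carried 3 E-boxes, starting 116, 58 and 44 bases before it. Each Tef window held 1 E-box, at chr15:81802526-81802571 and chr15:81811256-81811301 on the plus strand. Nr1d1 (chr11:98775380-98775425, minus strand) held the E-box variant 28 bases before its start site, and Arntl (chr7:113207531-113207557, plus strand) held a ROR element that begins 30 bases after its second start site. In the windows of Dbp and Nr1d2, the second window of Per1 and the first window of Arntl none of these letters was found. Among 32851 promoter windows of the same length, the E-box was present in 7.15%, its variant in 4.68%, the D-box in 1.06%, the ROR element in 2.61% and the cAMP element in 1.79%. A match is a description of the letters and not of a bound site.

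Per unit of transcript length, the nuclear receptors and output factors were the most abundant members and Arntl the least. In the pre-treatment experiment the mean over 9 mice was 30.4 FPKM (fragments per kilobase of transcript and library size) for Nr1d2, 21.1 for Tef, 17.7 for Dbp and 17.0 for Nr1d1. Then came Per1 at 7.60, Per2 at 5.55, Ciart at 5.50, Per3 at 5.03 and Arntl at 2.36 FPKM. Only the steps from Nr1d1 to Per1 and from Per3 to Arntl separated neighbours whose ranges over mice did not overlap. In the delayed treatment experiment the mean over 12 mice was 27.3 FPKM for Tef, 25.5 for Nr1d2, 23.9 for Nr1d1, 14.8 for Dbp and 8.18 for Per1. The others followed at 4.68 FPKM for Per2, 4.32 for Ciart, 3.48 for Per3 and 2.54 for Arntl. There the ranges were separate between Nr1d1 and Dbp, Dbp and Per1, and Per1 and Per2, and those of the other neighbours overlapped.

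The range over mice differed between members and is given within each experiment. Arntl, the activator that partners CLOCK (chr7:113207465-113314126, plus strand), lay between 16.8 and 23.2 CPM in the pre-treatment experiment and between 19.2 and 23.9 CPM in the delayed treatment experiment. The highest mouse stood 1.38-fold over the lowest in the first and 1.25-fold in the second. Dbp (chr7:45705088-45710203, plus strand) differed 1.69-fold and 1.46-fold between its extreme mice in the 2 experiments, and Nr1d1 (chr11:98767932-98775333, minus strand) 1.98-fold and 1.39-fold. Ciart differed 1.48-fold and 2.19-fold, Per3 1.21-fold and 1.83-fold, and Tef 3.62-fold and 1.67-fold. The SD of log2 CPM inside groups was smaller than the median over all tested genes for 7 of the 9 members in the pre-treatment experiment (median 0.20) and for 8 in the delayed treatment experiment (median 0.21). Those above the median were Dbp (0.26) and Tef (0.78) in the first and Ciart (0.24) in the second. Counts per mouse ran from 388 for Ciart to 21256 for Tef, so counting error was small beside these spreads. The tested genes behind the median SD were not matched to the members by level. The number of members below it therefore does not show whether they were unusually even.

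**Figure D1:**
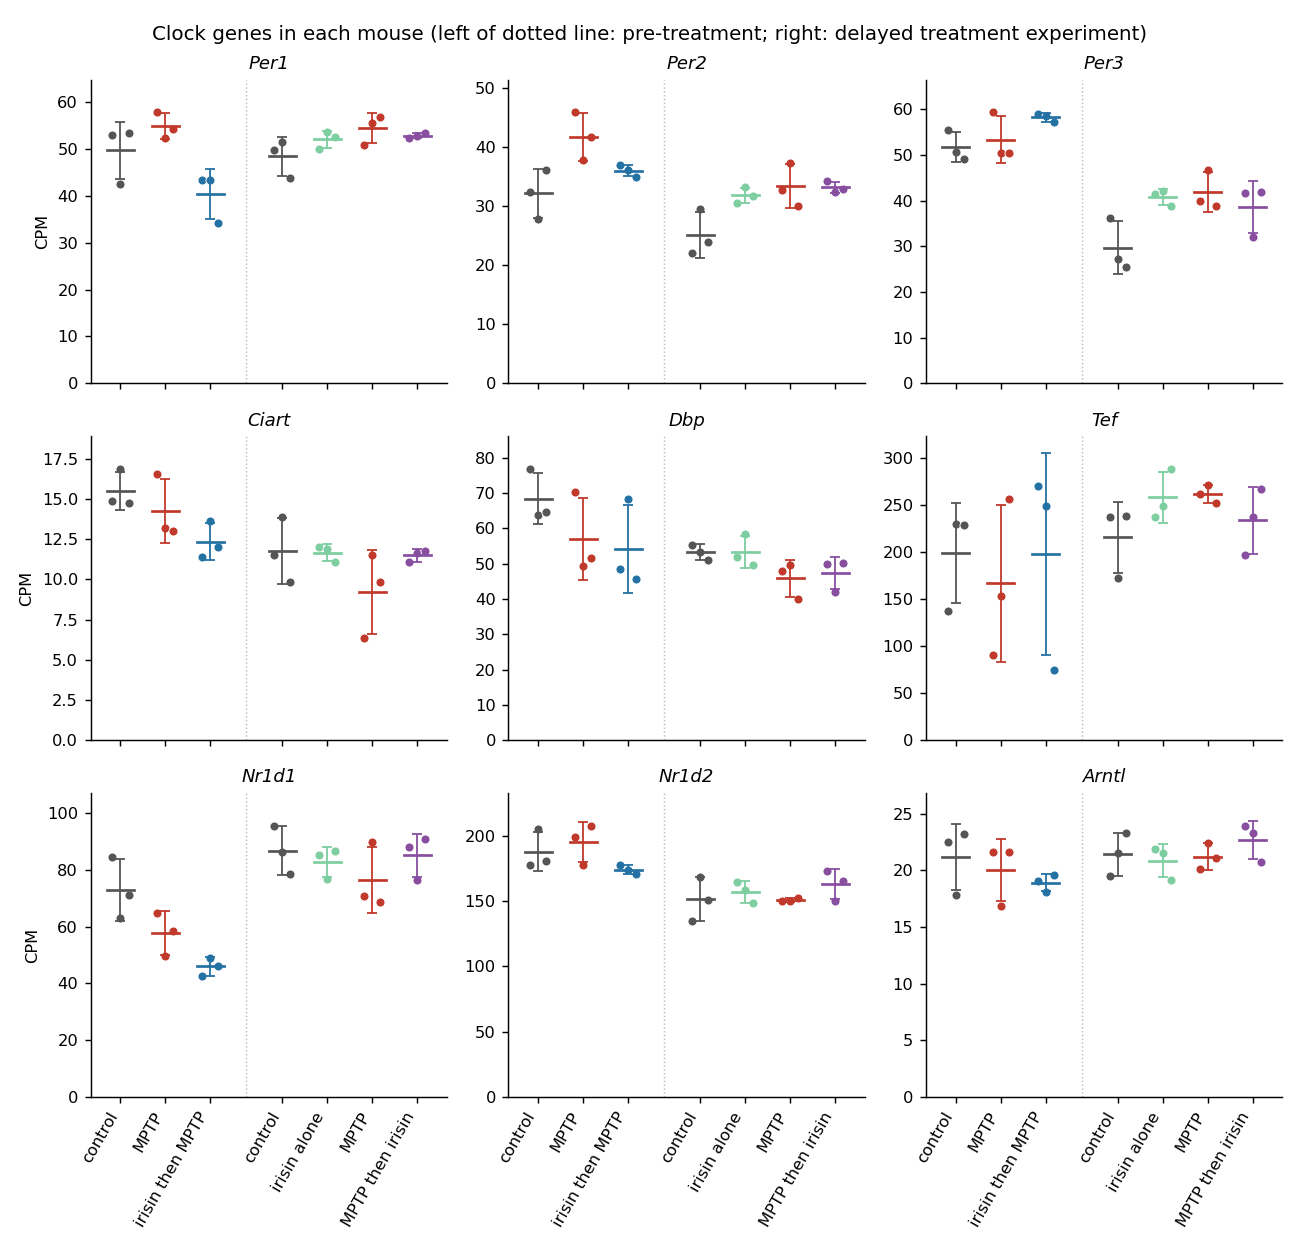
Each panel shows 1 clock gene in CPM (linear axis from 0) for the 3 mice of each of 7 groups, with the group mean and SD. Nr1d1 steps down from control to MPTP to irisin then MPTP on the left, the delayed controls are the lowest group for Per2 and Per3, Arntl is nearly level, and Tef spreads from 74.8 to 270.5 CPM inside the pre-treatment groups.

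No member passed an adjusted p of 0.05 (edgeR quasi-likelihood test, Benjamini-Hochberg over 22641 or 21922 genes) in any of the 8 comparisons. By limma on FPKM the number was also 0, and by DESeq2 without a filter it was 1. The counts of members that follow use the unadjusted p or whether groups overlap, each beside the share of all tested genes that met the same criterion in that comparison, against which counts of other gene lists can be read too. They describe where the members lay and do not call any of them changed.

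Whether MPTP alone moved the clock was asked first in the mice whose last injections were MPTP. Of 9 members, 0 passed the adjusted threshold (0.0221% of all genes passed), and 2 had an unadjusted p under 0.05 (6.03% of all genes). Per2 was the only member whose groups did not overlap, against 11.6% of all genes. Its product forms the repressor complex of the loop with the cryptochromes (chr1:91415982-91459324, minus strand). Per2 read 32.4, 27.9 and 36.2 CPM in controls and 45.9, 37.7 and 41.6 CPM in MPTP mice. All 3 MPTP mice stood above all controls, by a log2 fold change of 0.38 (SE 0.11, edgeR adjusted p = 0.815). Nr1d1 read 84.5, 63.1 and 71.1 CPM in controls against 64.9, 49.6 and 58.6 CPM in MPTP mice, with 1 control inside the range of the MPTP mice. Its log2 fold change was -0.34 (SE 0.13, edgeR adjusted p = 0.823). The median log2 fold change was -0.08 over the members and -0.002 over all genes, and the median size regardless of sign was 0.14 against 0.15.

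Irisin given before MPTP was then set against MPTP alone. Among the members 0 passed the adjusted threshold (0.0707% of all genes) and 2 the unadjusted one (6.22%), both lower with irisin. For 3 of 9 members the groups did not overlap (14.2% of all genes), and all 3 (Per1, Per2 and Nr1d1) were lower with irisin. Per1 is a period gene that light and neuronal activity induce quickly (chr11:69095217-69109960, plus strand). It read 57.8, 52.3 and 54.2 CPM with MPTP and 43.4, 43.4 and 34.1 CPM with irisin then MPTP. The difference was -0.44 on the log2 scale (SE 0.12, edgeR adjusted p = 0.537). Nr1d1 was lower by a log2 fold change of -0.33 (SE 0.13, edgeR adjusted p = 0.749). Per2 read 36.9, 36.2 and 35.0 CPM with irisin then MPTP, below the MPTP mice by -0.21 on the log2 scale (SE 0.11, edgeR adjusted p = 0.874). The median log2 fold change was -0.16 over the members and 0.003 over all genes.

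Against the controls, irisin then MPTP gave the lowest adjusted p of any member. No member passed (0 of 9, against 0.0707% of all genes), 3 had an unadjusted p under 0.05 (7.12%) and 3 had groups that did not overlap (13.6%). Nr1d1, which encodes the heme-sensing repressor REV-ERB alpha, read 42.7, 49.1 and 46.1 CPM with irisin then MPTP. Every one of these mice lay below every control, at a mean ratio of 0.63. The log2 fold change was -0.67 (SE 0.13, 95% interval -0.96 to -0.37, edgeR adjusted p = 0.220). Leaving out 1 mouse at a time, it ran from -0.76 to -0.55 with adjusted p from 0.179 to 0.637. DESeq2 without a filter gave an adjusted p of 0.00407 for the same gene, so the call depends on the tool.

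Ciart, a repressor of CLOCK and BMAL1 (chr3:95878503-95882231, minus strand), read 14.9, 16.9 and 14.8 CPM in controls and 11.4, 13.7 and 12.03 CPM with irisin then MPTP. Its groups were separate too, with a log2 fold change of -0.33 (SE 0.13, edgeR adjusted p = 0.648). Per1 was lower by -0.30 on the log2 scale (SE 0.12, edgeR adjusted p = 0.668), with overlapping groups. Per3 went the other way, with 59.0, 58.6 and 57.2 CPM above 55.5, 50.8 and 49.2 CPM in controls, a log2 fold change of 0.17 (SE 0.08, edgeR adjusted p = 0.742). Both comparisons with irisin then MPTP use the same 3 irisin mice, and those with the controls share the 3 controls, so their values are not separate observations.

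Other gene groups differed between these same mice. The 10 immediate-early genes, which neuronal activity induces within minutes, summed to 81.9 to 99.3 CPM with irisin then MPTP, 156.4 to 189.5 CPM with MPTP and 131.5 to 220.2 CPM in controls. Of them, 1 (Fos) passed the adjusted threshold against either group and was lower. An unadjusted p under 0.05 was found for 7 against MPTP (6.22% of all genes) and 8 against controls (7.12%), all lower. Fos read 8.20, 6.22 and 9.89 CPM with irisin then MPTP and 21.3 to 34.4 CPM in the other 6 mice, a log2 fold change of -1.88 against MPTP (SE 0.22, edgeR adjusted p = 0.0210). The 5 red blood cell genes summed to 230.9 to 455.2 CPM there, 549.1 to 810.4 CPM with MPTP and 529.6 to 826.3 CPM in controls, and all 5 had an unadjusted p under 0.05 against either group, all lower. For the 10 glucocorticoid-responsive genes, a class that includes Fkbp5 and follows a hormone with its own daily rhythm, the sums were 784.8 to 969.4 CPM with irisin then MPTP, 789.5 to 884.2 CPM with MPTP and 647.4 to 698.4 CPM in controls. These sums rest on the abundant genes of the list and hide differences in both directions. At an unadjusted p under 0.05 there were 6 of 10 for MPTP against control (all higher, beside 6.03% of all genes), 6 for irisin then MPTP against MPTP (3 higher, 3 lower, beside 6.22%) and 6 for irisin then MPTP against control (5 higher, beside 7.12%). Among those higher than with MPTP was Fkbp5, at a mean of 62.7 CPM against 27.7 CPM. The cold-inducible genes Cirbp and Rbm3, which follow body temperature, both had an unadjusted p under 0.05 for MPTP against control and were lower (median log2 fold change -0.57), and 1 of them, Cirbp, was higher with irisin then MPTP than with MPTP. Dopaminergic neuron genes with an unadjusted p under 0.05 numbered 1 of 8 for MPTP against control, 2 for irisin then MPTP against MPTP and 3 for irisin then MPTP against control, all lower. The median log2 fold change over all 8 genes was 0.16, -0.43 and -0.43 in these comparisons, so the list as a whole was not lower with MPTP alone. In the glucocorticoid, red blood cell, cold-inducible and dopaminergic lists 0 genes passed the adjusted threshold. The part of any of these, or of the choroid plexus genes, in the values of Per1, Per2 and Nr1d1 was not tested.

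**Figure D2:**
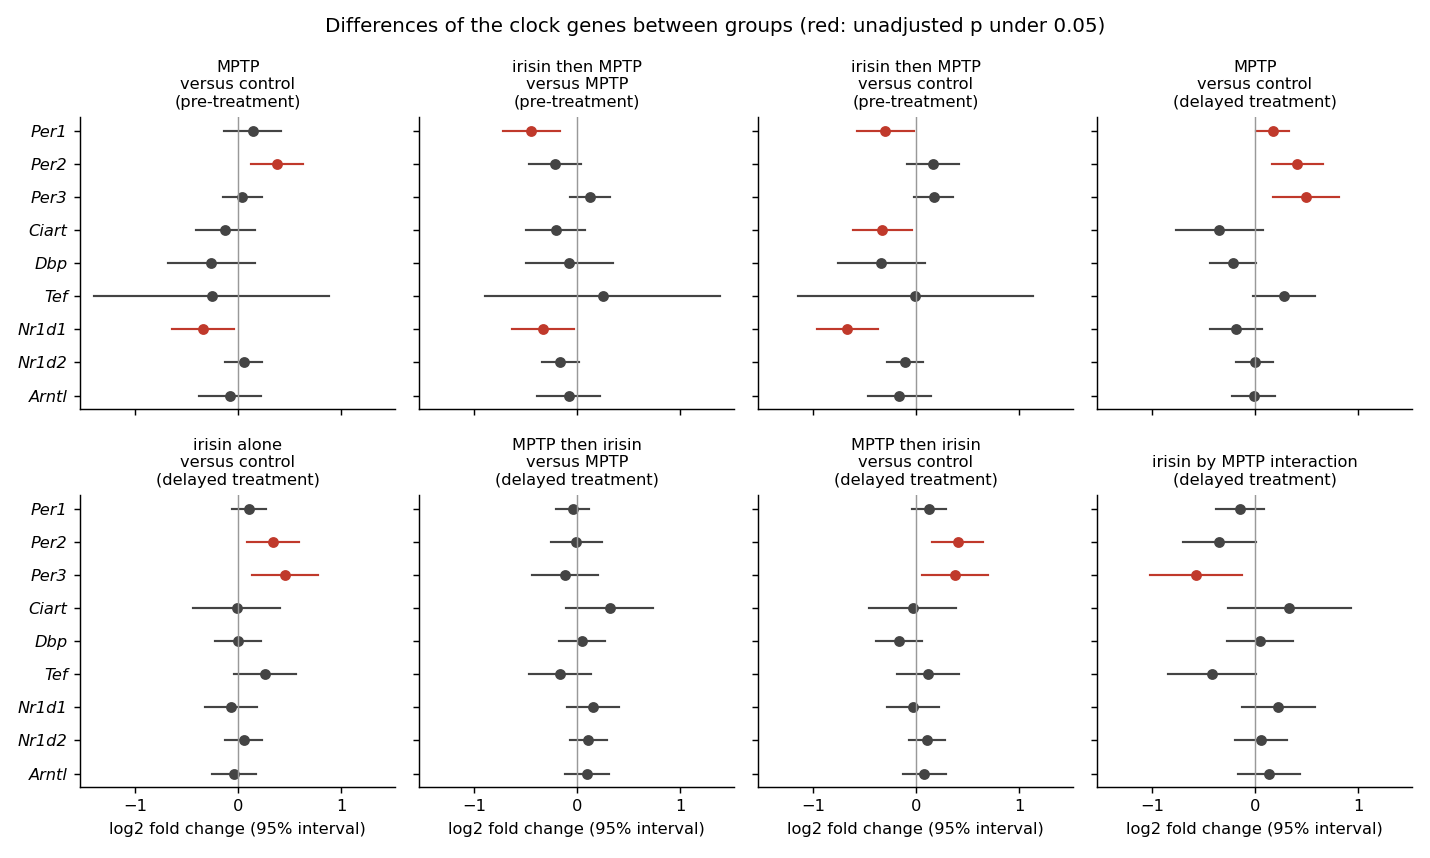
Log2 fold changes of the 9 clock genes (points) with 95% intervals from edgeR in the 8 comparisons, on a shared axis, red where the unadjusted p was under 0.05. Nr1d1 sits left of 0 in all 3 pre-treatment panels, Per2 and Per3 sit right of 0 in the 3 delayed panels against controls, no member is red in MPTP then irisin versus MPTP, and the intervals of Tef are the widest on the pre-treatment side.

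In the delayed treatment experiment, mice that had received MPTP and then water were compared with controls. Of the members 0 passed the adjusted threshold (0.132% of all genes) and 3 the unadjusted one (8.33%), which were Per1, Per2 and Per3, all higher. In 4 of 9 members the groups did not overlap (16.2%). Per3, a period gene with a lesser role in the core loop (chr4:151003652-151044665, minus strand), read 36.3, 27.3 and 25.5 CPM in controls and 39.9, 46.8 and 38.8 CPM with MPTP. All MPTP mice were higher, with a log2 fold change of 0.49 (SE 0.14, edgeR adjusted p = 0.389). Per2 read 22.0, 29.5 and 23.9 CPM in controls and 32.7, 37.3 and 30.0 CPM with MPTP, again with separate groups (log2 fold change 0.41, SE 0.11, edgeR adjusted p = 0.362). The difference of Per1 was smaller, 0.17 on the log2 scale (SE 0.07, edgeR adjusted p = 0.570), and its groups overlapped. It ran from 0.10 to 0.22 when single mice were left out, with adjusted p from 0.571 to 0.805.

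The output factors lay on opposite sides of the controls in that comparison, Dbp below them and Tef, like the period genes, above. Dbp read 55.4, 53.3 and 51.0 CPM in controls and 47.9, 49.7 and 40.0 CPM with MPTP, a log2 fold change of -0.22 (SE 0.10, edgeR adjusted p = 0.619). Tef, its relative of the PAR bZIP family (chr15:81802421-81826863, plus strand), read 237.4, 172.6 and 238.4 CPM in controls and 261.6, 271.2 and 251.9 CPM with MPTP, a log2 fold change of 0.28 (SE 0.14, edgeR adjusted p = 0.634). Both had groups that did not overlap, in opposite directions. Nr1d1 gave -0.18 (SE 0.11, edgeR adjusted p = 0.726), Nr1d2 -0.005 (SE 0.08) and Arntl -0.01 (SE 0.10) on the log2 scale.

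Irisin alone was compared with the same controls. There 0 members passed the adjusted threshold (0.109% of all genes), 2 the unadjusted one (8.97%), and the same 2 had separate groups (15.1%). Per2 read 30.5, 33.2 and 31.7 CPM with irisin alone (log2 fold change 0.34, SE 0.11, edgeR adjusted p = 0.479). Per3 read 41.5, 42.1 and 38.7 CPM (log2 fold change 0.46, SE 0.14, edgeR adjusted p = 0.447). The other 7 members lay within 0.26 of the controls on the log2 scale. Dbp was at 0.0006 (SE 0.10), with 51.9, 58.3 and 49.6 CPM.

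Delayed irisin after MPTP was set against MPTP alone, the comparison of treatment. None of the members passed the adjusted threshold (0.00456% of all genes), none had an unadjusted p under 0.05 (3.9%), and none had separate groups (10.7%). The log2 fold changes ran from -0.16 for Tef to 0.32 for Ciart. Ciart read 6.35, 11.5 and 9.82 CPM with MPTP and 11.1, 11.7 and 11.8 CPM with MPTP then irisin (SE 0.19, 95% interval -0.10 to 0.74). For Per2 the interval of the difference was -0.25 to 0.24, and for Nr1d1 it was -0.10 to 0.41.

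Against controls, MPTP then irisin gave 0 members past the adjusted threshold (0.109%), 2 past the unadjusted one (9.31%) and 3 with separate groups (14.6%). Per2 read 34.3, 32.5 and 32.9 CPM (log2 fold change 0.40, SE 0.11, edgeR adjusted p = 0.380). Per3 read 41.7, 32.1 and 41.9 CPM, with 1 mouse below the highest control (log2 fold change 0.38, SE 0.14, edgeR adjusted p = 0.469). Per1 was separate and higher, at 52.2, 52.7 and 53.4 CPM against 49.8, 51.5 and 43.7 CPM, and Dbp was separate and lower, at 49.9, 42.1 and 50.3 CPM. The means of Per2 and Per3 were thus above those of the water-injected controls in all 3 groups that received MPTP, irisin or both. The 3 comparisons share the same 3 controls, among which Per3 replicate 1 stood at 36.3 CPM and the other two at 27.3 and 25.5 CPM.

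An interaction asked whether irisin acted differently with and without MPTP. It passed the adjusted threshold for 0 members (0.0411% of all genes) and the unadjusted one for 1 (5.57%). This was Per3, at -0.57 on the log2 scale (SE 0.20, edgeR adjusted p = 0.893). Per2 gave -0.35 (SE 0.16, edgeR adjusted p = 0.893) and Tef -0.42 (SE 0.19, edgeR adjusted p = 0.893).

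Beside the period genes of the delayed treatment experiment, the cold-inducible genes Cirbp and Rbm3 summed to 60.5 to 87.6 CPM in controls, 77.9 to 97.4 CPM with irisin alone, 79.5 to 91.0 CPM with MPTP and 91.4 to 108.6 CPM with MPTP then irisin. The pair did not go together. Rbm3 had an unadjusted p under 0.05 in all 3 comparisons with controls and was higher in each, at 41.0, 44.0 and 32.5 CPM in controls against 46.8 to 75.7 CPM in the other 9 mice. Cirbp did not in any, with means of 35.7 CPM in controls, 30.5 with MPTP, 34.8 with irisin alone and 35.5 with MPTP then irisin. Immediate-early genes summed to 187.3 to 310.7 CPM in controls, 254.8 to 297.6 CPM with irisin alone, 162.5 to 231.2 CPM with MPTP and 227.7 to 253.9 CPM with MPTP then irisin, and 6 of 10 had an unadjusted p under 0.05 for MPTP against control (5 lower, beside 8.33% of all genes) and 5 for MPTP then irisin against MPTP (4 higher, beside 3.9%). Glucocorticoid-responsive genes summed to 770.0 to 1108.0 CPM in controls and 786.6 to 1045.5 CPM over the other groups, with 4 of 10 at an unadjusted p under 0.05 for MPTP against control (3 lower), 1 for irisin alone (higher) and 2 for MPTP then irisin against control (1 higher, 1 lower). Choroid plexus genes, led by Ttr, summed to 235.1 to 1498.7 CPM in controls, 61.0 to 294.6 CPM with irisin alone, 39.3 to 1535.2 CPM with MPTP and 172.6 to 1647.5 CPM with MPTP then irisin. Of these 5 genes, 1 had an unadjusted p under 0.05, for irisin alone against control (lower). The part of any of these in the levels of Per2 and Per3 was not tested.

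Controls of the 2 experiments, which received the same injections, did not read alike. In 4 of 9 members they did not overlap, against 41.9% of 21153 genes tested in both, so the share was close to that of genes at large. Per3 was the widest of these, at a mean of 51.8 CPM in pre-treatment controls and 29.7 CPM in delayed controls, a ratio of 0.57. Dbp (ratio 0.78), Ciart (0.76) and Nr1d2 (0.81) were likewise lower in the delayed controls. Nr1d1 (1.19), Per1 (0.97), Per2 (0.78), Tef (1.09) and Arntl (1.01) overlapped. Library sizes of the pre-treatment mice included 10.6 to 12.9% mitochondrial counts and those of the delayed mice 0%. This raises delayed over pre-treatment CPM, and neither the ratios nor the overlap of controls were corrected for it. The experiment, its library batch and its hour of collection cannot be told apart here, and no test was made.

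Tef had the least even values of the members. In the pre-treatment experiment it read 137.3, 230.5 and 229.3 CPM in controls, 90.7, 152.9 and 256.7 CPM with MPTP, and 270.5, 249.0 and 74.8 CPM with irisin then MPTP. The highest and the lowest mouse, 3.62-fold apart, belonged to the same group. Its SD of log2 CPM inside groups was larger than that of 97.4% of tested genes, and the 95% interval of MPTP against control ran from -1.39 to 0.88 on the log2 scale. The lowest of these mice still had 5445 counts. In the delayed treatment experiment Tef stayed between 172.6 and 288.5 CPM.

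The wider clock was read from 23 other genes, of which 23 were tested and 0 passed the adjusted threshold in any comparison. With an unadjusted p under 0.05 there were, in the pre-treatment experiment, 0 for MPTP against control (6.03% of all genes), 1 for irisin then MPTP against MPTP (lower, 6.22%) and 2 for irisin then MPTP against control (1 higher, 1 lower, 7.12%). In the delayed treatment experiment there were 5 for MPTP against control (4 higher, 8.33%), 4 for irisin alone (all higher, 8.97%), 4 for MPTP then irisin against MPTP (3 higher, 3.9%), 7 for MPTP then irisin against control (6 higher, 9.31%) and 3 for the interaction (all lower, 5.57%). The medians of their log2 fold changes were 0.07, 0.08 and 0.13 in the 3 comparisons with delayed controls. These comparisons share the same 3 controls, so they are not separate observations. Genes with an unadjusted p under 0.05 in at least 2 of these 3 comparisons were Bhlhe40, which encodes a repressor that competes for E-boxes, the kinases Csnk1d and Csnk1e (Csnk1e lower), which phosphorylate PER proteins, and the ubiquitin ligase parts Btrc and Fbxw11, which mark PER proteins for breakdown. They are named after their values were seen. By groups that did not overlap, the 23 genes gave 0 for pre-treatment MPTP against control (11.6% of all genes). Irisin then MPTP gave 2 against MPTP (14.2%) and 3 against control (13.6%). Against delayed controls the number was 8 with MPTP (16.2%), 10 with irisin alone (15.1%) and 9 with MPTP then irisin (14.6%). For MPTP then irisin against MPTP it was 5 (10.7%).

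Clock, the partner of BMAL1, had means of 86.5 to 98.5 CPM in the pre-treatment groups and 61.1 to 67.2 CPM in the delayed groups. Its largest difference was -0.19 on the log2 scale for irisin then MPTP against MPTP (SE 0.08, edgeR adjusted p = 0.765). Npas2, which can take the place of CLOCK, was far lower at 3.88 to 10.99 CPM over all mice. The cryptochromes Cry1 and Cry2, the repressors that work with PER proteins, varied little in their group means. Cry1 had group means of 18.5 to 21.6 CPM and Cry2 of 98.0 to 105.3 CPM, and no comparison had an unadjusted p under 0.05 for either. Groups of Cry1 did not overlap for irisin then MPTP against control (19.6 to 23.5 against 17.7 to 18.9 CPM, beside 13.6% of all genes). Those of Cry2 did not for irisin alone against control (101.3 to 110.2 against 95.4 to 100.8 CPM, beside 15.1%).

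Hlf, the third PAR bZIP factor, read 187.4, 98.5 and 149.5 CPM in pre-treatment controls and 70.1, 67.5 and 73.0 CPM in delayed controls, 2 ranges that did not overlap. Against delayed controls it was higher with MPTP by 0.43 on the log2 scale (SE 0.19, edgeR adjusted p = 0.590), where 1 mouse stood at 131.6 CPM and the others at 78.5 and 73.2 CPM. Hlf read 99.3, 81.1 and 74.9 CPM with irisin alone and 93.8, 81.9 and 82.5 CPM with MPTP then irisin. In all 3 comparisons with these controls its groups did not overlap, beside 14.6 to 16.2% of all genes. Cipc, a CLOCK inhibitor named after its values were seen, lay at 7.52 to 132.7 CPM in pre-treatment mice. Inside the pre-treatment control group it read 8.07, 9.56 and 112.7 CPM. Delayed controls were even, at 118.6, 111.9 and 103.8 CPM, and all 3 mice given MPTP then irisin lay below them, at 9.24, 70.2 and 34.2 CPM (log2 fold change -1.56, SE 0.84, edgeR adjusted p = 0.608). The other delayed groups were uneven, from 10.2 to 116.4 CPM with MPTP and from 32.7 to 113.7 CPM with irisin alone.

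**Figure D3:**
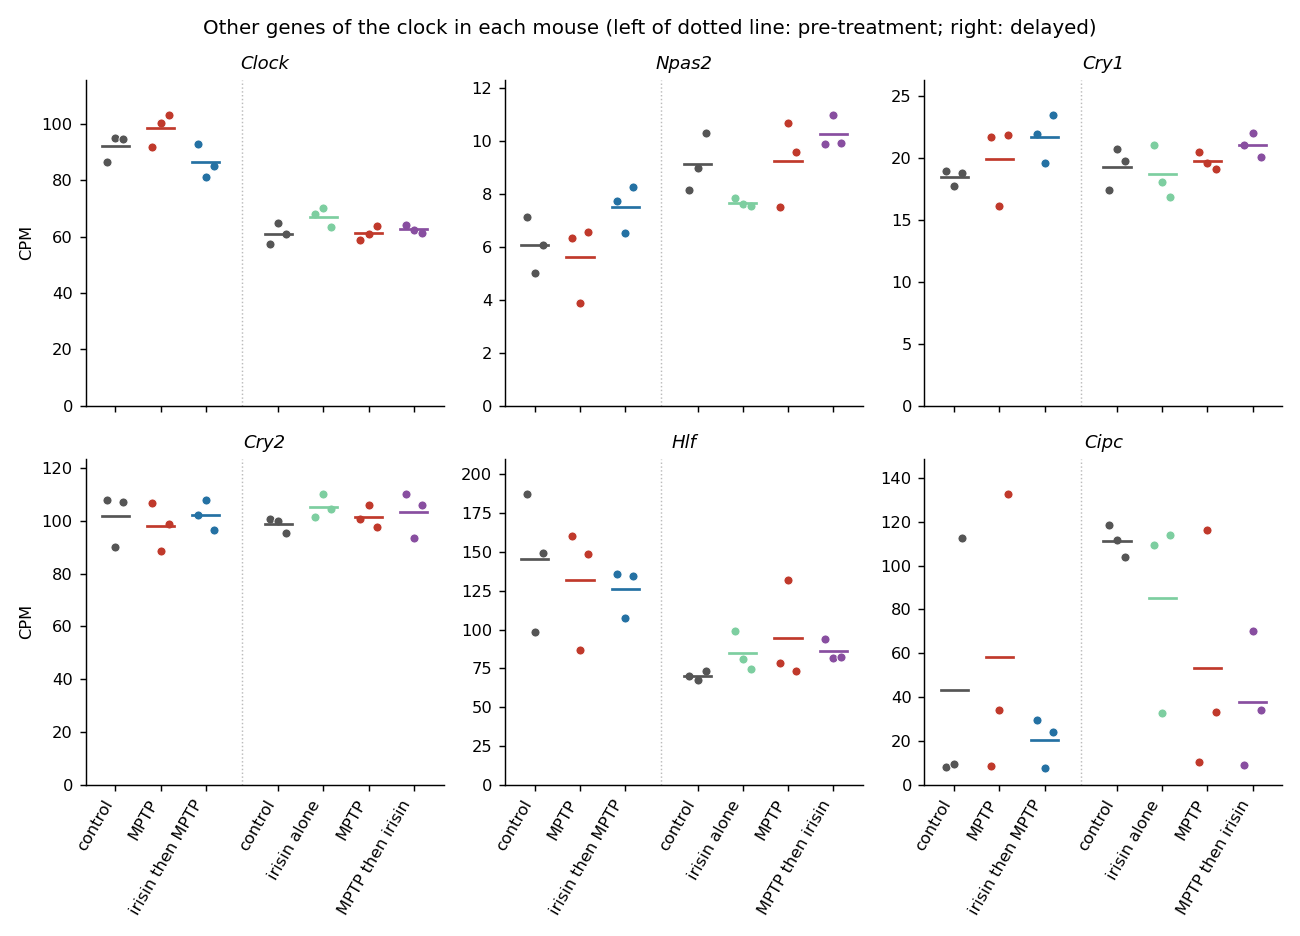
Levels in CPM (linear axis from 0) of 6 other clock genes in each mouse, with group means as bars. Cry1 and Cry2 are nearly level over all 7 groups, Clock and Hlf are lower and Npas2 higher in the delayed controls than in the pre-treatment controls, and Cipc spans 7.52 to 132.7 CPM inside the pre-treatment groups.

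A separate question was whether mice of the same group that stood high in one clock gene stood high in another. Each mouse's deviation of log2 CPM from its group mean was correlated over the 36 pairs of members, with an exact permutation test over all 279936 orders of mice within groups. After Benjamini-Hochberg adjustment over the 36 pairs, 1 pair passed, and 26 of 36 correlations were positive. Per3 and Dbp deviated together, with Pearson's r = 0.58 (exact p = 0.00011, adjusted p = 0.00399) and Spearman's rho = 0.65 (exact p = 0.0003) over 21 mice. In 17 of 21 mice both lay on the same side of the group mean. Within the pre-treatment experiment r was 0.73 (9 mice, exact p = 0.0556) and within the delayed treatment experiment 0.72 (12 mice, exact p = 0.000772). Without the 2 mice farthest from the median of Per3 it was 0.62 (exact p = 0.000997).

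The next pairs joined the same genes with Nr1d1 and did not pass the adjustment. Per3 and Nr1d1 had r = 0.71 and rho = 0.73 (exact p = 0.00289, adjusted p = 0.0520), and Dbp and Nr1d1 had r = 0.64 and rho = 0.66 (exact p = 0.00941, adjusted p = 0.113). The permutation p depends on how deviations are spread among groups, so its order differs from that of r. Per2 and Arntl had r = 0.60 (rho = 0.52, exact p = 0.0459, adjusted p = 0.413), and Per1 and Per2 had r = 0.52 (rho = 0.58, exact p = 0.0593, adjusted p = 0.427). Arntl, which swings in opposite phase to Dbp in tissues sampled over the day, had r = 0.15 with Dbp (rho = 0.20, exact p = 0.654) and r = 0.32 with Nr1d1 (rho = 0.25, exact p = 0.312). The sign differed between experiments, with 0.23 and 0.73 in the pre-treatment and -0.046 and -0.24 in the delayed treatment experiment. Tef had r between -0.23 and 0.26 with the other 8 members.

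**Figure D4:**
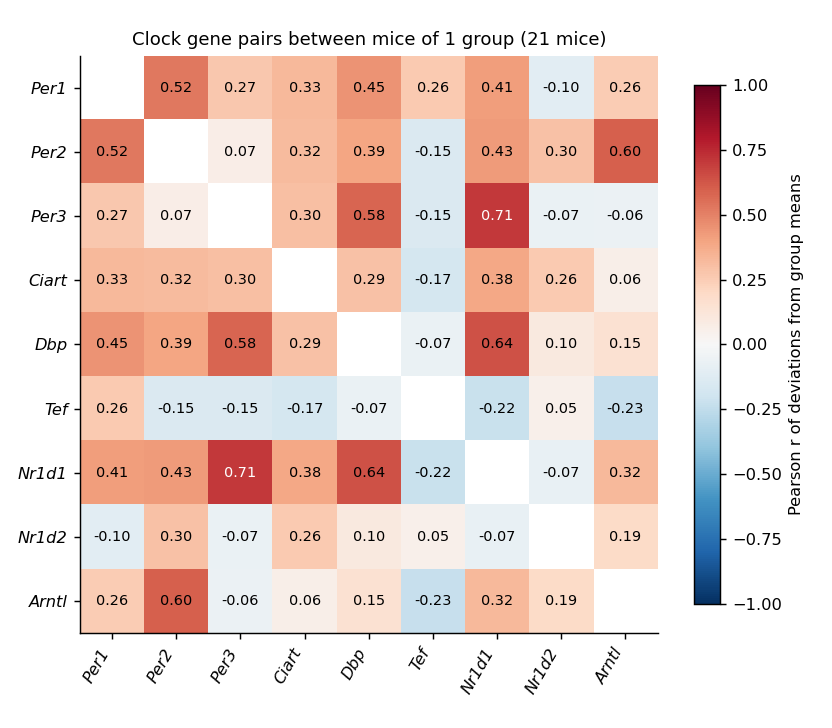
Pearson's r for each pair of the 9 clock genes, from deviations of log2 CPM from group means in 21 mice, on a color scale from -1 to 1. The strongest squares join Per3, Dbp and Nr1d1 (0.58 to 0.71) and Per2 and Arntl (0.60), and the row of Tef is near 0 or negative except with Per1.

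**Figure D5:**
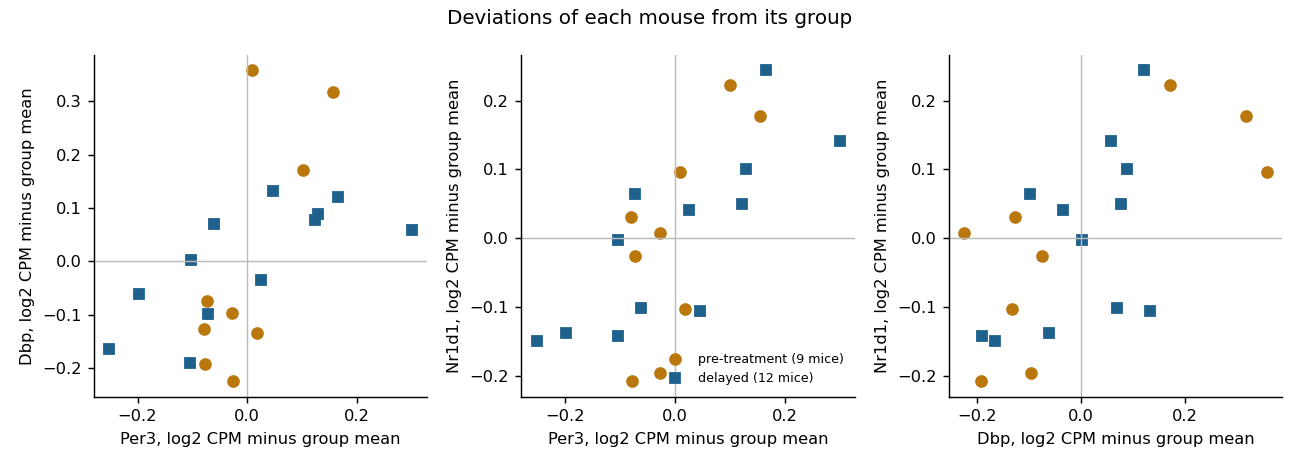
Deviations of log2 CPM from the group mean for 3 pairs of clock genes, circles for 9 pre-treatment mice and squares for 12 delayed mice. In the first panel 17 of 21 mice lie on the same side of 0 on both axes, and r is positive within both experiments.

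Some of the reads behind these values may belong to neighbours on the other strand, since the use of strand in counting is not given in the sources used here. Exons of Dbp share 18.0% of their bases with Sphk2, those of Nr1d1 8.55% with Thra, those of Tef 2.45% with Gm17597 and those of Arntl 0.439% with Gm45355. A further 21 relations were computed, of members with overlapping genes, with Ttr and with Hlf, and 2 passed adjustment over the 21. Nr1d1 deviated with Thra, a thyroid hormone receptor gene at 315.1 to 463.3 CPM, at r = 0.73 (rho = 0.75, exact p = 0.001, adjusted p = 0.0153), with 0.87 in the pre-treatment and 0.58 in the delayed treatment experiment. The figure of 8.55% of shared exon bases stands beside every value of Nr1d1, and its part in them was not tested. Arntl deviated with Hlf at r = 0.80 (rho = 0.76, exact p = 0.00145, adjusted p = 0.0153), with 0.94 and 0.53 in the 2 experiments and 0.65 without the 2 farthest mice. Dbp and Sphk2 had r = -0.29 (rho = -0.29, exact p = 0.325). With Ttr, the choroid plexus transcript, the 9 members had r between -0.58 (Arntl, rho = -0.58, exact p = 0.0393, adjusted p = 0.184) and 0.15 (Ciart), and none passed.

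Genes whose level followed Dbp most closely over the 21 mice, among 15504 genes with a mean of at least 1 CPM, were Mak16 (Pearson's r = 0.77), Tmem51 (0.75), Hhex (0.73), Ebf2 (0.73) and Aaas (0.72). For Arntl they were Adamts15 (0.87), Slc13a5 (0.84), Nr2e1 (0.81), Sertad4 (0.79) and Rtn4rl1 (0.79). They are given as a description, with no test, and mice of 2 experiments enter each value. The members were left out of this ranking beforehand, so their absence from it carries no meaning. These correlations used log2 CPM minus the mean of the experiment, so differences between groups remain in them. On this scale Dbp had r = 0.72 with Nr1d1 and 0.04 with Per3.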

How the data were processed

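Midbrain RNA-seq of 21 mice in 7 groups of 3 was analysed, grouped by the sample labels. Nothing in the labels says how litters or days were shared, so p-values measure the spread between these mice. The authors sequenced on an Illumina NovaSeq, used featureCounts for gene counts, and deposited the raw count and the FPKM value of each gene per mouse. The labels' processing notes name HISAT, StringTie, edgeR and mm9, but the coordinates match GRCm38 (GENCODE M21) for 8 of 9 members, and GRCm38 is used. Authors' own comparisons were not used.

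Counts were tested with edgeR 4.0.16 (quasi-likelihood, TMM, filterByExpr with a least count of 10) in R 4.3.3, each experiment by itself with all its groups in 1 fit, and adjusted by Benjamini-Hochberg over all tested genes at 0.05. All 9 members passed the filter on low counts. Correlations used log2(CPM + 0.5). Alternatives were DESeq2 1.42.0 without a filter, limma 3.58.1 on log2(FPKM + 1) with a mean of at least 0.1, median ratio scaling, all genes with any count, only the compared groups, a replicate block, and leaving out each mouse. Scripts were tested on simulated data. No 2 mice of a group held the same counts.

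The members and lists were chosen with earlier results of these data known. Named with values are the 9 members, Clock, Npas2, Cry1, Cry2 and Hlf, any other clock gene past the threshold, and the 5 genes most like Dbp and Arntl. The other lists were immediate-early, glucocorticoid-responsive and cold-inducible genes and cell type markers, of which astrocyte, oligodendrocyte, microglia, endothelium and neuron markers are given in the closing section.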

Additional observations from a re-analysis of the deposited data

How the results depend on the processing

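No member was called in any comparison under any alternative, with 1 exception, DESeq2 without a filter, which called 1 member (Nr1d1) in irisin then MPTP against control. The cause was not tested. With the replicate block 0 members were called in each of the 8 comparisons. Same-numbered mice of different groups had deviations correlated between -0.10 and 0.16 in the pre-treatment and between -0.08 and 0.04 in the delayed treatment experiment. Mice with different numbers had -0.15 to 0.18 and -0.05 to 0.10. No pairing by number was seen in these values. Whether same-numbered mice shared a litter, a day or an order of collection is not known. The number of correlated pairs was 2 on log2(FPKM + 1). It was 1 with Spearman's rho, in the delayed treatment experiment by itself and without the 2 farthest mice. In the pre-treatment experiment by itself it was 0, but its 9 mice allow few orders within groups. The smallest p of the exact permutation test possible there was 0.00463, which Per1 and Per2 had. At that p a single pair could not pass the adjustment, so this 0 cannot show whether any pair was correlated there. Over all genes, DESeq2 called 25 to 167 genes in the 7 comparisons between groups against 1 to 29 with edgeR and 1 to 17 with the replicate block.

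With the replicate block Tef gave 0.053 in irisin then MPTP against control and Per2 0.0013 in MPTP then irisin against MPTP. For MPTP against control in the delayed treatment experiment, Nr1d2 gave 0.00883 with all genes, 0.0027 with DESeq2 and 0.024 with limma, and Arntl 0.00845 with limma. Ciart gave 0.0096 with limma for irisin alone against control. Leaving out 1 mouse at a time turned the sign of 22 fold changes. For MPTP against control in the pre-treatment experiment they ran from -0.19 to 0.033 for Arntl, -0.00073 to 0.12 for Nr1d2, -0.044 to 0.087 for Per3 and -0.72 to 0.036 for Tef. For irisin then MPTP against MPTP they ran from -0.28 to 0.10 for Dbp and -0.049 to 0.70 for Tef. For irisin then MPTP against control they ran from -0.30 to 0.38 for Tef. For MPTP against control in the delayed treatment experiment they ran from -0.081 to 0.049 for Arntl and -0.085 to 0.079 for Nr1d2. For irisin alone against control they ran from -0.10 to 0.026 for Arntl, -0.12 to 0.13 for Ciart, -0.069 to 0.049 for Dbp, -0.13 to 0.0052 for Nr1d1 and -0.025 to 0.14 for Nr1d2. For MPTP then irisin against MPTP they ran from -0.038 to 0.13 for Dbp, -0.073 to 0.084 for Per2 and -0.18 to 0.0018 for Per3. For MPTP then irisin against control they ran from -0.14 to 0.11 for Ciart, -0.093 to 0.045 for Nr1d1 and -0.023 to 0.22 for Tef. For the interaction they ran from -0.040 to 0.13 for Dbp and -0.027 to 0.14 for Nr1d2.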

Other observations

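Markers of further cell types were read in the same mice. Summed by list, the range over all 21 mice was as follows. The 5 astrocyte genes gave 2240.5 to 2740.1 CPM, 5 microglial genes 85.7 to 148.1 CPM, 5 endothelial genes 126.0 to 217.6 CPM, 4 neuronal genes 3833.6 to 4283.3 CPM and 5 oligodendrocyte genes 7418.5 to 12554.9 CPM. None of these 24 genes passed the adjusted threshold in any comparison (edgeR). Dopaminergic neuron genes summed to 675.9 to 712.8 CPM in delayed controls and 462.5 to 587.3 CPM with delayed MPTP, where 4 of 8 had an unadjusted p under 0.05 (8.33% of all genes), all lower. For MPTP then irisin against control, with sums of 474.1 to 544.9 CPM, the number was 5 of 8 (9.31% of all genes), all lower. The medians of their log2 fold changes were -0.49 and -0.62. For irisin then MPTP against control it was 3 of 8 (7.12%), all lower, with a median of -0.43. For MPTP against control in the pre-treatment experiment the number was 1 of 8 (6.03%), lower, but the median was 0.16. Of these genes 0 passed the adjusted threshold in any comparison (edgeR).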
